A study of Homo sapiens and Mus musculus with 18 samples.

Results

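Loss of keratin 17 was examined in L3.6, an established human line of pancreatic adenosquamous carcinoma, a pancreatic tumour with glandular and squamous parts. Cells with intact keratin 17 (the wild type, 3 libraries) were set against cells in which the gene had been targeted with CRISPR-Cas9 (the K17 knockout, 3 libraries). The labels give both groups the same medium with serum and name no drug, time point or other allele in either of them. The 6 libraries were taken by their labels from a series of 18, whose other libraries come from different cell lines, and the 13891 genes that passed a filter on low counts, of 34505 rows in each file, were compared. The title of the series ties keratin 17 to resistance to chemotherapy and to mitochondria. The labels do not say whether the knockout is a single clone, which guide was used, or whether replicates came from separate cultures. The p-values below therefore reflect no more than the spread among these libraries, which may be technical.

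Keratin 17, the product of KRT17, is a type I keratin, an acidic intermediate filament protein that assembles only with a type II partner such as keratin 5 or 7. Normal pancreatic duct cells make little of it, while basal and injured epithelia and basal-like pancreatic cancers make it strongly. Besides giving mechanical support it has been linked to actin organisation, to growth and inflammatory signalling and to transcription in the nucleus.

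Total counts ran from 9485257 to 15476629 per library. Wild-type replicate 1 lay nearer the knockout than wild-type replicates 2 and 3 did: on the first principal component of log2 CPM (counts scaled to a common library size; 41.8% of the variance) it lay at 7.44, between the knockout libraries at -40.6 to -18.6 and the other wild-type libraries at 40.1 and 41.4. On the second (15.7%) replicates 2 and 3 were the far pair, at -35.4 and 29.6, with replicate 1 at 5.77. Across genes the 3 wild-type pairs correlated alike (r = 0.970 to 0.972). Wild-type replicate 1 correlated about as closely with knockout replicates 1, 2 and 3 (r = 0.972, 0.969 and 0.971). Wild-type replicates 2 and 3 correlated less with the knockout libraries (r = 0.954 to 0.962). The counts of replicates 2 and 3 differed with a chi-square per degree of freedom of 5.1, those of knockout pairs with 5.79 to 10.8, and those of replicate 1 against replicates 2 and 3 with 35 and 43.8. A single row, the processed pseudogene AC010970.1, held most of that gap: without it the values were 4.99 for replicates 2 and 3, 4.72 to 5.49 for knockout pairs, and 9.06 and 11.9 for replicate 1 against replicates 2 and 3. AC010970.1 received 4.34% to 6.96% of all counts in knockout libraries, and 6.05%, 13.5% and 14.1% in wild-type replicates 1, 2 and 3. Some rows of very active genes were low (EEF2 32 to 53 counts, GAPDH 545 to 1096), so a row may hold only a share of a gene's reads, and levels of different genes were not ranked. Summed epithelial markers held 4080 to 4410 CPM in the knockout and 3490 to 3900 CPM in the wild type, and summed squamous markers 1410 to 1470 and 1090 to 1240 CPM, with KRT6A and SERPINB3 at 0 in all 6 libraries. Markers of other cell types were lower: fibroblast markers summed to 170 to 188 CPM in the knockout and 191 to 215 CPM in the wild type, endothelial ones to 7.74 to 9.2 and 15.7 to 18.5 CPM (PLVAP at 0), immune ones to 3.02 to 7.41 and 6.68 to 7.05 CPM (CD3D, CD3E and MS4A1 at 0), and acinar and islet ones to 0.216 to 0.309 and 0.338 to 1.08 CPM (5 of 9 at 0). All these sums but the immune one stood apart between the groups, and their part in the results below was not tested.

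KRT17 itself was checked first. The knockout libraries held 202, 204 and 175 KRT17 counts (15.6, 14.7 and 13.5 CPM) and the wild-type libraries 1654, 1112 and 1420 (105, 121 and 120 CPM), with replicates 1, 2 and 3 in that order here and below. All 3 wild-type libraries, replicate 1 included, were far above all 3 knockout libraries. The wild type was 7.88-fold higher, a log2 fold change (wild type minus knockout) of 2.98 (SE 0.0885). In edgeR's quasi-likelihood test the p-value after Benjamini-Hochberg adjustment, called the adjusted p from here on, was 3.29e-06. KRT17 lies at chr17:41619441-41624842 (GRCh38), and its 5 pseudogene copies on the same chromosome, whose reads could be confused with its own, held 0 to 4 counts per library. A gene-level count does not show the edit, and the knockout retained 175 to 204 KRT17 counts per library. As for every gene here, RNA of a bulk culture cannot tell fewer expressing cells from less RNA per cell.

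Of the 10 other keratins tested, KRT7 and KRT19 were lower in the wild type and 8 did not pass the threshold of an adjusted p under 0.05. KRT19, a type I keratin of simple ducts and the neighbour of KRT17 on chromosome 17, had 1940, 2110 and 2010 CPM in the knockout and 1770, 1550 and 1610 CPM in the wild type (log2 fold change -0.30, SE 0.061, adjusted p = 0.0212). KRT7, the type II keratin of ducts, had 145, 122 and 113 CPM in the knockout and 81.1 to 101 CPM in the wild type (log2 fold change -0.52, SE 0.117, adjusted p = 0.0326). Both differences were small beside that of KRT17, and neither pair of groups overlapped. Each call was lost in fits without a single library: KRT19 without knockout replicates 2 and 3 and wild-type replicates 2 and 3 (adjusted p = 0.105, 0.112, 0.0955 and 0.0651), KRT7 without knockout replicates 1 and 2 and wild-type replicates 2 and 3 (0.0734, 0.0867, 0.114 and 0.11). KRT5, the basal type II partner, had a log2 fold change of -0.43 (adjusted p = 0.105) and KRT8, the abundant simple-epithelial type II keratin, one of -0.14 (adjusted p = 0.178). KRT13 and KRT15 stood at 0.36 and 0.20 (adjusted p = 0.416 and 0.367), and KRT10, KRT18, KRT83 and KRT86 at 0.11, -0.19, 0.02 and -0.43 (adjusted p of at least 0.494). KRT14, the usual basal partner of KRT5, had 0 to 4 counts per library and KRT16 0 to 12, and neither was tested.

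With all 6 libraries, 1335 genes (9.61% of those tested) passed the threshold, 488 higher in the wild type (3.51%) and 847 lower (6.1%). The groups did not overlap in any of the 1335, and they did not overlap in 33.2% of all genes tested. Most changes were modest: the median log2 fold change was 0.57 among genes called higher and -0.48 among those called lower, and 245 genes (1.76%) reached 2-fold. Calls depended on level: of 1901 genes with a mean of at least 100 CPM, 127 were higher and 326 lower (median log2 fold change -0.08). Of 5337 genes of 1 to under 10 CPM, 96 were higher and 89 lower (median 0.18). The shares of gene lists below are set beside all genes tested, without matching for level. With upper-quartile factors in place of TMM factors the calls split 639 higher and 706 lower (47.5% higher, against 36.6% with TMM). Without wild-type replicate 1 the count rose to 2493 (17.2% of 14463 genes tested), 956 higher (6.61%) and 1537 lower (10.6%). It was 807, 574 and 576 without knockout replicates 1, 2 and 3, and 659 and 786 without wild-type replicates 2 and 3. In all 7 fits 487 genes were called, 161 higher and 326 lower. Below, a call is said to have held in every fit when it was among these.

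**Figure D1:**
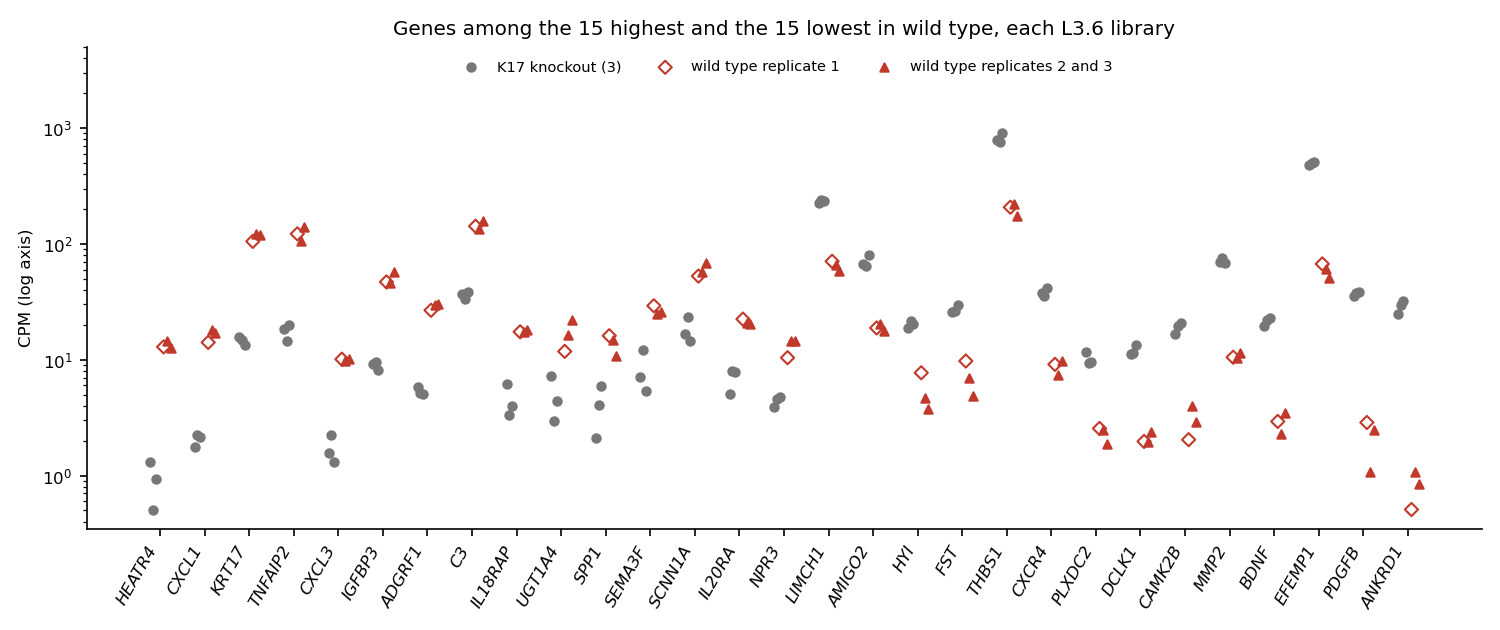
CPM (log axis) of genes among the 15 with the highest and the 15 with the lowest log2 fold change of all called protein-coding genes with a mean of at least 5 CPM. Each point is a library: grey circles the 3 K17 knockout libraries, open diamonds wild-type replicate 1, triangles wild-type replicates 2 and 3. The genes were chosen so that the groups do not overlap, which by itself places wild-type replicate 1 on the side of the other wild-type libraries.

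Among the 15 genes highest in the wild type were chemokines, a scaffold of inflammatory cells and cytokine receptors. CXCL1, a ligand of CXCR2 that attracts neutrophils, had 1.78, 2.23 and 2.17 CPM in the knockout and 14.1, 17.9 and 17.1 CPM in the wild type, 7.89-fold more (log2 fold change 2.98, SE 0.192, adjusted p = 9.06e-05). CXCL3, its neighbour on chromosome 4 and a ligand of the same receptor, had 1.55, 2.23 and 1.32 CPM in the knockout and 10.1, 9.76 and 10.1 CPM in the wild type, 5.83-fold more (SE 0.244 on the log2 scale, adjusted p = 0.000686). TNFAIP2, which TNF induces and which shapes membrane protrusions, had 18.5, 14.5 and 19.9 CPM in the knockout and 122, 105 and 140 CPM in the wild type, 6.95-fold more (SE 0.143, adjusted p = 5.32e-05). In these 3 genes the lowest wild-type library was several times the highest knockout library. CXCR4, the receptor of CXCL12, went the other way, with 37.3, 35.4 and 41.8 CPM in the knockout and 9.11, 7.37 and 9.81 CPM in the wild type (log2 fold change -2.11, SE 0.136, adjusted p = 9.06e-05). Of the 7 members tested of a list of chemokines and receptors, these 3 (CXCL1 and CXCL3 up, CXCR4 down) were called, in every fit. The list does not hold CXCR5, which was called higher too and is described below.

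CXCL1 and CXCL3 are textbook targets of NF-kB, the transcription factor that I-kappa-B proteins hold in the cytoplasm and that binds short G- and C-rich sites. Of 27 NF-kB subunits, regulators and feedback genes tested, 4 were higher in the wild type (14.8%) and 3 lower (11.1%), with a median log2 fold change of 0.05. NFKBIA, the inhibitor that NF-kB itself induces, had 86.3, 88.0 and 92.4 CPM in the knockout and 163, 142 and 163 CPM in the wild type (log2 fold change 0.81, SE 0.0684, adjusted p = 0.000358). NFKBIZ, an inducible nuclear partner of NF-kB, had 20, 14.1 and 16.0 CPM in the knockout and 30.5, 36.1 and 35.0 CPM in the wild type (1.02, SE 0.146, adjusted p = 0.00436). TNFAIP2 and PTGS2, the prostaglandin synthase induced in inflammation, were the other genes called higher. PTGS2 had 1.08 to 1.7 CPM in the knockout and 2.54 to 4.66 CPM in the wild type (adjusted p = 0.0496), and of the 4 only its call was lost when a library was left out (adjusted p = 0.072, 0.162 and 0.156 without knockout replicates 1, 2 and 3, and 0.159 and 0.066 without wild-type replicates 2 and 3). The 3 calls on the lower side, IKBKG (log2 fold change -0.54), CYLD (-0.37) and BIRC2 (-0.21), were not stable. CYLD was lost without knockout replicate 3 (adjusted p = 0.0618), IKBKG without any library but wild-type replicate 1 (adjusted p = 0.0629 to 0.1) and BIRC2 likewise (0.0808 to 0.165).

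The 250 bases before the start sites of 4 of these genes are shown because all of them hold GGAATTTCC, the core of a sequence NF-kB can bind, on 1 of their strands (in capitals, 5' to 3' on the gene's own strand, from the RefSeq promoter table, GRCh38.p14). They are CXCL1 (chr4:73869143-73869392, plus strand), CXCL3 (chr4:74038690-74038939, minus strand), NFKBIA (chr14:35404750-35404999, minus strand, the reverse complement of the string) and NFKBIZ (chr3:101827740-101827989, plus strand, 1 of 2 listed promoters).
CXCL1: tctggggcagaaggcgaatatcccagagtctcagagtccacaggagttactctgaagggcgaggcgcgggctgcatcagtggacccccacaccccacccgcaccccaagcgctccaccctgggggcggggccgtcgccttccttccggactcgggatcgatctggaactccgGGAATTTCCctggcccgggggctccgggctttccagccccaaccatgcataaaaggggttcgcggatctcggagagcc
CXCL3: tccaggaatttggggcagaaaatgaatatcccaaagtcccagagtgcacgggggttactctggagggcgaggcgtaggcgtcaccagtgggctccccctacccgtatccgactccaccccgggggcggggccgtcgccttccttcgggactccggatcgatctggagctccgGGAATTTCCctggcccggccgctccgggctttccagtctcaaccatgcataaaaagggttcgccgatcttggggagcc
NFKBIA: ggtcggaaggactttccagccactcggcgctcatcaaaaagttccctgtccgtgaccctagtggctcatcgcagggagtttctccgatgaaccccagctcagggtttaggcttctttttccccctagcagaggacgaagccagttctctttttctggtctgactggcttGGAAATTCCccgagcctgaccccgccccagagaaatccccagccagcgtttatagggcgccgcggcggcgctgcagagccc
NFKBIZ: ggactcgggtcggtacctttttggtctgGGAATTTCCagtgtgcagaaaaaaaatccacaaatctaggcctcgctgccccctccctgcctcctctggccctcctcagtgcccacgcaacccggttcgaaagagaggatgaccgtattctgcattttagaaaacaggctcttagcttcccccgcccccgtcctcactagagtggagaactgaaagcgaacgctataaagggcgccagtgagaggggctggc

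In CXCL1 and CXCL3 the match begins 78 bases before the start site, in NFKBIA 81 and in NFKBIZ 222. Over the table's windows of 300 bases, the string stood in 0.461% of 35116 promoters, in 0.421% of the 14966 of genes tested, in 8 of 570 promoters of genes called higher (1.4%) and in 10 of 1205 promoters of genes called lower (0.83%). Besides the genes printed above, further called genes hold it, among them IL18RAP on the higher side and LIMCH1 and COL7A1 on the lower side. It was not found in the windows of TNFAIP2 and PTGS2. The string was chosen after matches had been seen, and longer spellings of the site had been tried first. The overlapping spelling GGGNNTTCC was searched, like all strings, on both strands. It stood in 6.58% of all promoters, 7.79% of those of genes tested, 5.96% of those called higher and 7.47% of those called lower. An AP-1 string, TGANTCA, stood in 7.71%, 5.32%, 5.09% and 7.14% in the same order. A match is a string of letters, and binding was not measured.

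A few cytokine receptors were higher in the wild type as well. IL18RAP and IL18R1 encode the 2 chains of the receptor for interleukin 18. IL18RAP had 6.11, 3.31 and 3.95 CPM in the knockout and 17.4, 17.3 and 17.9 CPM in the wild type (log2 fold change 1.98, SE 0.226, adjusted p = 0.00152), and IL18R1 had 106 to 115 CPM and 220 to 251 CPM (1.14, SE 0.0666, adjusted p = 6.61e-05). IL20RA, a receptor chain shared by several cytokines of the interleukin 10 family, was 3.03-fold higher (adjusted p = 0.00178). TNFRSF21 (0.44) rose too, while TNFRSF12A, the receptor of TWEAK, was lower (-0.78, adjusted p = 0.00604). These were the 5 called genes of 29 interleukins, TNF family members and receptors tested (13.8% higher, 3.45% lower, median 0.01), and all 5 held in every fit. C3, the central complement protein, had 36.8, 33.3 and 38.3 CPM in the knockout and 142, 134 and 158 CPM in the wild type (4.0-fold, SE 0.0835 on the log2 scale, adjusted p = 1.22e-05). The complement inhibitors CD59 and CLU and the C1q-binding protein gene C1QBP were lower in the wild type (log2 fold changes -0.50, -0.64 and -0.59). Of 43 interferon-stimulated genes 1 was higher (2.33%) and 3 were lower (6.98%).

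The mucins, the large glycoproteins of mucus and of the apical membrane, changed in every member tested: 5 of 6 were higher in the wild type and 1 was lower (83.3% and 16.7%, median 1.29). MUC2, a secreted gel-forming mucin, had 248, 242 and 221 CPM in the knockout and 710, 702 and 656 CPM in the wild type (2.91-fold, SE 0.0603 on the log2 scale, adjusted p = 1.22e-05). Its gel-forming neighbours on chromosome 11 rose as well: MUC5B had 202, 253 and 202 CPM in the knockout and 472, 530 and 778 CPM in the wild type (2.71-fold, adjusted p = 0.00712), and MUC5AC had 36.9, 36.8 and 34.4 CPM and 73.9, 73.4 and 62.5 CPM (1.94-fold, adjusted p = 0.000513). The membrane mucins split. MUC16, the carrier of the CA125 antigen, had 3.48, 4.17 and 3.64 CPM in the knockout and 0.318, 0.325 and 0.254 CPM in the wild type (12.2-fold higher in the knockout, SE 0.337 on the log2 scale, adjusted p = 0.0006). MUC4 had 0.0773, 0.144 and 0.155 CPM in the knockout and 0.828, 2.93 and 6.01 CPM in the wild type, where the libraries themselves differed several fold and replicate 1 was lowest (log2 fold change 4.58, SE 0.857, adjusted p = 0.0154). MUC1 had 13.9, 16.9 and 11.6 CPM in the knockout and 23.9, 24.1 and 46.1 CPM in the wild type (2.21-fold, adjusted p = 0.0468). MUC16 in the wild type and MUC4 in the knockout lay near or below the level of 3 counts, so the sizes of their changes are uncertain. That level was 0.191 to 0.325 CPM in the wild-type libraries and 0.216 to 0.232 CPM in the knockout libraries. The calls of MUC2, MUC5B, MUC5AC and MUC16 held in every fit. That of MUC4 was lost without knockout replicates 1, 2 and 3 (adjusted p = 0.0613, 0.0694 and 0.0641), and that of MUC1 without those (0.126, 0.1 and 0.163) and without wild-type replicates 2 and 3 (0.0621 and 0.0545).

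**Figure D2:**
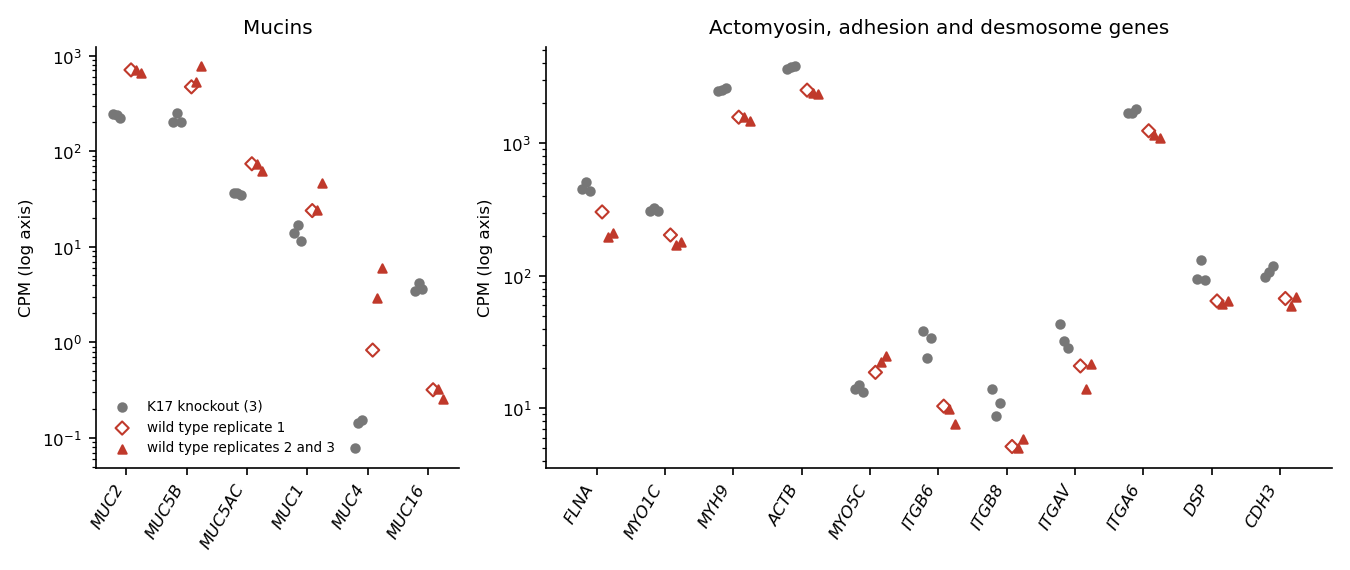
CPM (log axes) of the 6 mucins tested and of 11 genes of the actin cytoskeleton, integrins and junctions, each library a point (grey circles K17 knockout, open diamonds wild-type replicate 1, triangles wild-type replicates 2 and 3). MUC16 is the only mucin with all wild-type libraries below the knockout. In the right panel ACTB, MYH9, FLNA, ITGA6, ITGB6, DSP and CDH3 are among the genes with all wild-type libraries below the knockout.

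Further genes of the 15 highest included secreted and surface proteins, an enzyme and a gene of unclear function. HEATR4, the last of these, had 1.31, 0.504 and 0.929 CPM in the knockout and 12.9, 14.4 and 12.7 CPM in the wild type (14.5-fold, SE 0.301 on the log2 scale, adjusted p = 0.000245). IGFBP3, which binds insulin-like growth factors, had 9.2, 9.57 and 8.13 CPM in the knockout and 46.9, 45.7 and 57.3 CPM in the wild type (5.57-fold, SE 0.128, adjusted p = 4.38e-05). ADGRF1, an adhesion G protein-coupled receptor, had 5.8, 5.18 and 5.03 CPM and 26.7, 29.6 and 30.5 CPM (5.41-fold, SE 0.131, adjusted p = 5.1e-05). The knockout and wild-type ranges of these 3 lay well apart. SCNN1A, the alpha subunit of the epithelial sodium channel, was 3.25-fold higher in the wild type, SEMA3F, a secreted semaphorin, 3.24-fold, and NPR3, the natriuretic peptide clearance receptor, 2.96-fold. SPP1, the matrix protein osteopontin, was 3.44-fold higher (adjusted p = 0.0178), a call lost without knockout replicate 2 or wild-type replicate 2 (adjusted p = 0.0786 and 0.0669). UGT1A4, a glucuronosyltransferase, was 3.45-fold higher (adjusted p = 0.0201), lost without knockout replicates 2 and 3 (0.051 and 0.0823) and wild-type replicates 2 and 3 (0.0624 and 0.0613).

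In 4 protein-coding genes every knockout library had 0 counts and every wild-type library at least 10. APOOL, a mitochondrial inner membrane protein of cristae junctions, had 54, 26 and 68 counts in the wild type, at least 53-fold higher when the knockout group is set to a floor of 3 counts in all (0.0755 CPM). CXCR5, the receptor of CXCL13 best known from lymphocytes, had 53, 21 and 82 counts (at least 55.6-fold). ERVFRD-1, the retroviral envelope gene syncytin 2, had 47, 33 and 25 (at least 38.4-fold), and AC048338.1 had 25, 67 and 70 (at least 65.3-fold). All 4 passed the threshold (adjusted p = 0.00205 to 0.0119). No protein-coding gene showed the reverse pattern.

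The 15 genes lowest in the wild type, and so higher in the knockout, included growth factors, matrix proteins and the gene with the largest change of the 30. ANKRD1, an ankyrin repeat protein of muscle and a standard readout of YAP and TEAD, had 24.7, 29.9 and 31.8 CPM in the knockout and 0.509, 1.08 and 0.846 CPM in the wild type (36.7-fold higher in the knockout, log2 fold change -5.20, SE 0.246, adjusted p = 2.33e-05). PDGFB, a secreted growth factor for mesenchymal cells, had 35.8, 37.8 and 38.2 CPM in the knockout and 2.87, 1.08 and 2.45 CPM in the wild type (16.7-fold, SE 0.248, adjusted p = 9.06e-05). In both the knockout libraries lay close together and every wild-type library was below 3 CPM. EFEMP1, a fibulin of the extracellular matrix, had 479, 502 and 507 CPM in the knockout and 67.1, 60.6 and 50.9 CPM in the wild type (8.31-fold, SE 0.0955, adjusted p = 3.29e-06). LIMCH1, an activator of non-muscle myosin II, had 224, 241 and 236 CPM and 70.7, 66.1 and 58.6 CPM (3.59-fold, adjusted p = 1.22e-05). AMIGO2, an adhesion protein first described in neurons, was 3.71-fold higher in the knockout, FST, the activin antagonist follistatin, 3.77-fold, and HYI, a putative isomerase, 3.7-fold.

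YAP and TEAD act at the end of the Hippo pathway, which restrains growth where cells are crowded or soft, and their targets include secreted matrix proteins. Of 24 targets tested, 8 were lower in the wild type (33.3%) and 1 was higher (4.17%), with a median log2 fold change of -0.45. Besides ANKRD1, THBS1, the matrix protein thrombospondin 1, had 790, 764 and 904 CPM in the knockout and 207, 222 and 175 CPM in the wild type (4.07-fold higher in the knockout, SE 0.0997 on the log2 scale, adjusted p = 4.38e-05). AXL, a receptor tyrosine kinase, had 140, 128 and 137 CPM and 68.0, 73.1 and 59.8 CPM (2.01-fold, adjusted p = 0.00025). RBMS3, an RNA-binding protein, was 2.23-fold higher in the knockout (adjusted p = 0.00668). IGFBP3 was the member that went up in the wild type. The calls lower in the wild type that held in every fit numbered 5. Of 24 Hippo pathway components, the kinases and adaptors upstream, 2 were higher (8.33%) and 1 was lower (4.17%). The 250 bases before the ANKRD1 start site (chr10:90921088-90921337, minus strand, GRCh38) are shown as those of the gene with the largest change of the 30, with the TEAD string GGAATG in capitals.
ANKRD1: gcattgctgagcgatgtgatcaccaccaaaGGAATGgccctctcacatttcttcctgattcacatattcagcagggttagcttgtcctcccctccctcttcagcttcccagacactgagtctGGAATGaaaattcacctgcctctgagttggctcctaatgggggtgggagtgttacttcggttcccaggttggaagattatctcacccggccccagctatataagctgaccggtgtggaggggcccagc

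The 2 matches begin 220 and 128 bases before the start site. The string is common: it stood in 14% of all promoter windows, in 11.5% of those of genes tested, in 12.1% of those of genes called higher and in 11.7% of those called lower, and GGAATGN, with a free last base, in 14%, 11.5%, 12.1% and 11.6%. It too was kept after matches had been seen.

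Several growth factors of neurons and vessels and their receptors were lower in the wild type, and most of those tested were not called. Of 30 PDGF, VEGF, FGF and neurotrophin genes tested, 9 were lower (30%) and 2 higher (6.67%), with a median of -0.14, and 7 of the 9 held in every fit. BDNF, the brain-derived neurotrophic factor, had 19.7, 22.2 and 22.7 CPM in the knockout and 2.93, 2.28 and 3.47 CPM in the wild type (7.36-fold higher in the knockout, SE 0.182 on the log2 scale, adjusted p = 9.06e-05). NTRK2, its receptor, had 143, 154 and 150 CPM and 41.1, 37.8 and 45.6 CPM (3.58-fold, SE 0.0761, adjusted p = 1.22e-05). So ligand and receptor were both higher in the knockout, in every library. FGFR1 (log2 fold change -0.84) and FGFBP1, a carrier that releases FGFs from matrix (-0.83), were lower in the wild type, and VEGFA was higher (0.39, adjusted p = 0.00507). Of 30 neuronal genes 8 were lower (26.7%), and 4 of the 8 held in every fit: CAMK2B, a calmodulin-dependent kinase (6.5-fold higher in the knockout), UCHL1, a ubiquitin hydrolase (7.06-fold), DCLK1, a microtubule-binding kinase (5.71-fold), and MAP2, a microtubule-associated protein (3.72-fold). The median over the 30 neuronal genes was 0.10, above 0, although all 8 calls were below it. Of 46 axon guidance genes 6 were lower (13%) and 3 higher (6.52%), with a median of 0.11. On the lower side were PLXDC2 (-2.14) and PLXND1 (-0.85), a plexin-like protein and a plexin, and on the higher side SEMA3F, given above.

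Among mesenchymal genes more were lower than higher in the wild type, while the structural genes of the matrix showed fewer calls. Of 16 collagen chains 1 was higher and 1 lower (6.25% each, median 0.31). Of 30 matricellular and elastic fibre genes 2 were higher (6.67%) and 4 lower (13.3%), with a median of -0.19. Of 20 mesenchymal genes tested 8 were lower (40%) and 1 was higher (5%), with a median of -0.43, and 5 of the 8 held in every fit. MMP2, the gelatinase that cuts basement membrane collagen, had 69.9, 74.9 and 68.4 CPM in the knockout and 10.5, 10.4 and 11.5 CPM in the wild type (6.57-fold higher in the knockout, SE 0.0871 on the log2 scale, adjusted p = 3.29e-06). VIM, the intermediate filament vimentin of mesenchymal cells, had 1970, 2160 and 2080 CPM and 1480, 1320 and 1230 CPM (1.54-fold, adjusted p = 0.00174). The lowest knockout library of VIM was above the highest wild-type library, which was replicate 1. The collagen-crosslinking enzyme LOXL2 (1.7-fold) and the metalloproteases ADAM12 (2.13-fold) and ADAM19 (2.63-fold) were higher in the knockout as well. TIMP3, an inhibitor of such proteases, went the other way, with 71.3, 69.4 and 78.3 CPM in the knockout and 178, 152 and 154 CPM in the wild type (2.22-fold, SE 0.0799, adjusted p = 0.000141). In the TGF-beta family 6 of 35 were lower (17.1%) and 1 was higher (2.86%), with a median of -0.05. TGFB1 fell by 0.58 and its receptor TGFBR2 by 0.72 on the log2 scale in the wild type, and GDF15, a stress-induced member, was 2.55-fold higher there (adjusted p = 0.00138).

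Cytoskeletal and adhesion genes were called lower more often than higher in the wild type across several lists. Abundant genes such as ACTB are among them, and abundant genes were more often called lower in general, as given above. Of 44 actomyosin genes tested 17 were lower (38.6%) and 3 higher (6.82%), with a median of -0.27, and 10 of the 17 held in every fit. ACTB, cytoplasmic beta-actin, had 3620, 3730 and 3810 CPM in the knockout and 2510, 2390 and 2330 CPM in the wild type (1.54-fold higher in the knockout, SE 0.0487 on the log2 scale, adjusted p = 0.000245). MYH9, the heavy chain of non-muscle myosin IIA, had 2480, 2520 and 2600 CPM and 1570, 1580 and 1480 CPM (1.64-fold, SE 0.0472, adjusted p = 0.000103). FLNA, a filamin that crosslinks actin, had 451, 508 and 437 CPM in the knockout and 303, 197 and 212 CPM in the wild type (adjusted p = 0.012). That call was lost without knockout replicate 2 (adjusted p = 0.0604). Of 13 membrane-binding annexins 6 were lower (46.2%), ANXA1 among them (-0.75), and 1 was higher (7.69%), with a median of -0.46. ANXA8 (-0.71) and ANXA8L1 (-0.98) are near-identical copies whose reads counting may split.

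Laminin 332 and the integrins that bind it anchor basal epithelium. LAMA3, its alpha chain, had 226, 237 and 269 CPM in the knockout and 187, 168 and 170 CPM in the wild type (1.39-fold higher in the knockout, SE 0.0771 on the log2 scale, adjusted p = 0.00722). ITGA6, an alpha chain of the laminin receptor, had 1690, 1700 and 1810 CPM and 1240, 1150 and 1090 CPM (1.49-fold, adjusted p = 0.000922). ITGB6, the epithelial integrin chain that activates latent TGF-beta, had 38.3, 24.2 and 33.8 CPM and 10.4, 9.86 and 7.61 CPM (3.44-fold, adjusted p = 0.00146). In each of the 3 the groups stood apart in all libraries. In all, 5 of 16 integrin subunits were lower (31.2%) and 1 higher, and 4 of 19 laminin and basement membrane genes were lower (21.1%) and 1 higher (COL4A6, a collagen IV chain, 0.55).

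Desmosomes couple keratin filaments to the membrane. Of 11 desmosome and plakin genes 5 were lower in the wild type (45.5%), median -0.16, against 1 to 6 in fits without a library. DST, the hemidesmosomal plakin dystonin, had 262, 253 and 276 CPM in the knockout and 186, 197 and 199 CPM in the wild type (1.36-fold higher in the knockout, adjusted p = 0.00189), and of the 5 only its call held in every fit. DSP, desmoplakin, had 95.3, 131 and 93.4 CPM and 64.6, 61.7 and 64.6 CPM (1.67-fold, adjusted p = 0.0118), lost without wild-type replicate 2 (adjusted p = 0.0544). The adherens junction genes CTNNB1, CTNND1 and CDH3 were lower too (log2 fold changes -0.36, -0.33 and -0.71), 3 of the 4 called of 25 adherens and tight junction genes. CDH3, P-cadherin of basal cells, had 97.2, 107 and 118 CPM in the knockout and 67.4, 59.5 and 69.1 CPM in the wild type (adjusted p = 0.00211). In DST, DSP and CDH3 every knockout library stood above every wild-type library.

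**Figure D3:**
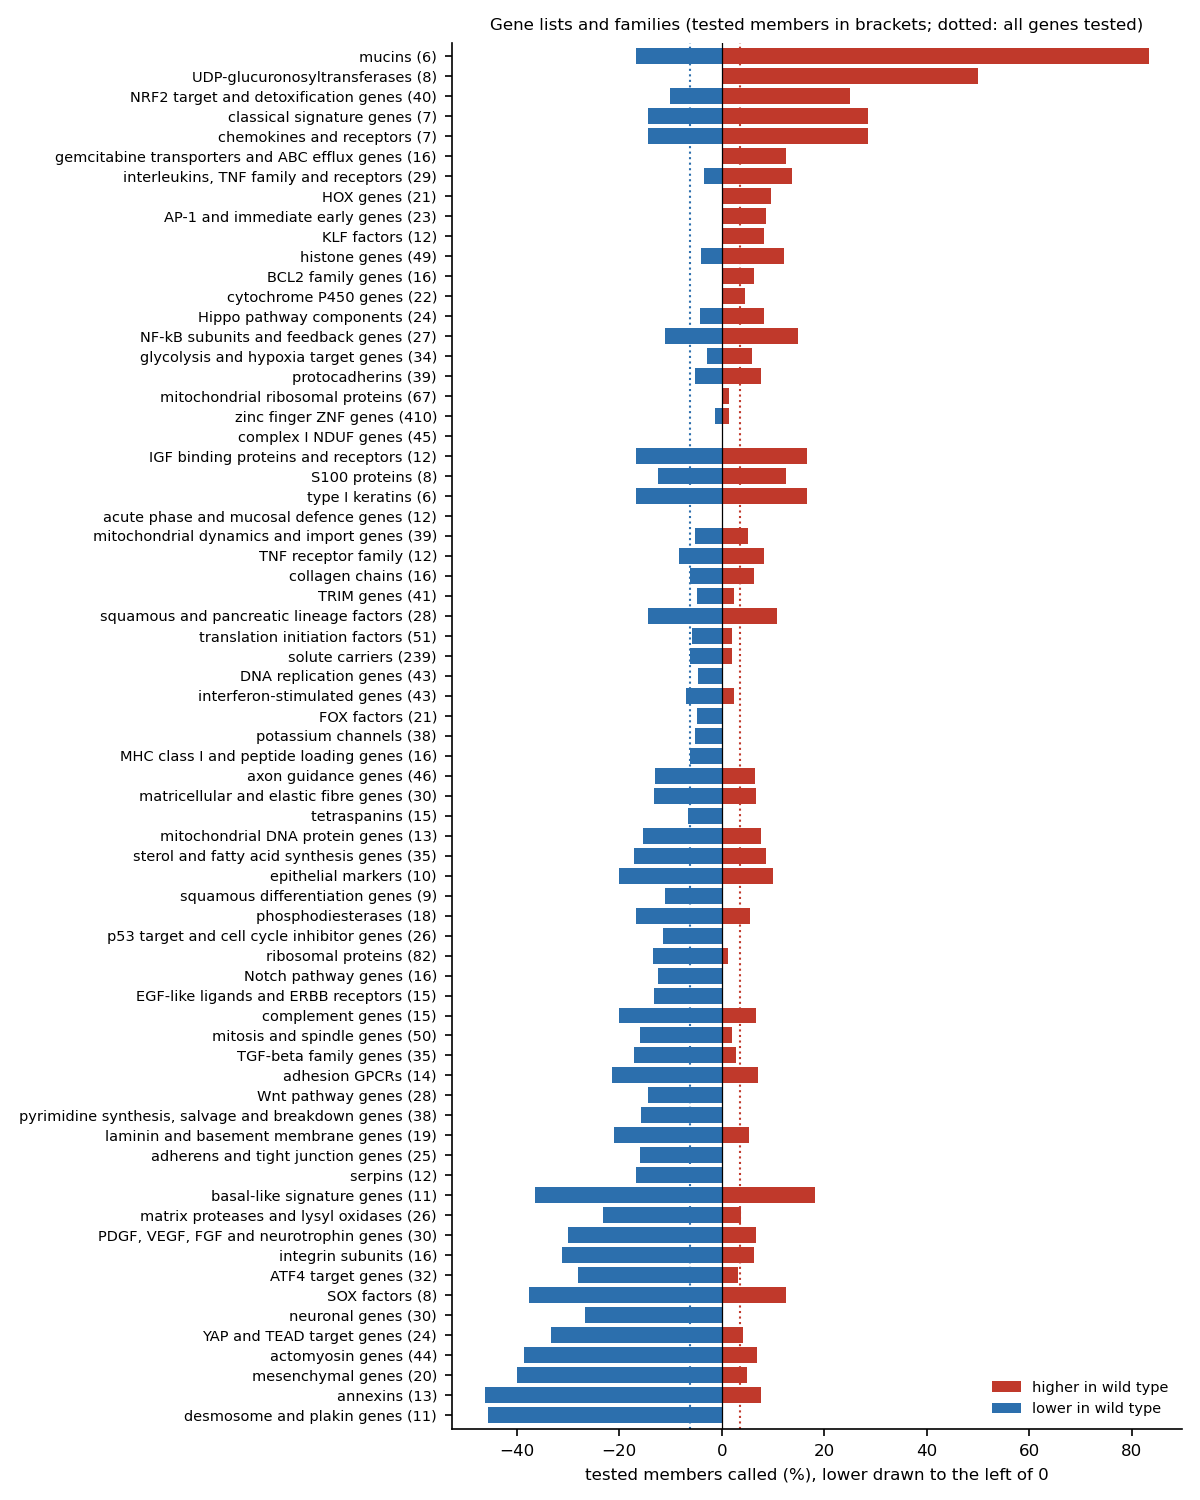
Share of the tested members of each gene list or family with at least 6 tested members that was called higher (right, red) or lower (left, blue) in the wild type, with the number tested in brackets and dotted lines at the shares over all genes tested (3.51% and 6.1%). Mucins lie at the upper end with 83.3% higher, and annexins and desmosome genes at the lower end with 46.2% and 45.5% lower.

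Factors and signatures that separate squamous or basal-like from glandular or classical pancreatic cancer did not move as blocks. Of 28 squamous and pancreatic lineage factors 3 were higher (10.7%) and 4 lower (14.3%), against 3.51% and 6.1% of all genes tested. KLF5, a factor of proliferating epithelium, had 98.9, 76.5 and 86.9 CPM in the knockout and 154, 205 and 196 CPM in the wild type (2.12-fold, adjusted p = 0.00269), with wild-type replicate 1 lowest of the 3. EHF and RUNX3 rose less (0.50 and 0.53). TP63, the master factor of squamous epithelium, had 379, 398 and 385 CPM in the knockout and 267, 277 and 289 CPM in the wild type (log2 fold change -0.48, SE 0.0496, adjusted p = 0.000945), and BNC1, a basal zinc finger factor, was lower as well (-1.11). These 5 calls held in every fit. Of 11 basal-like signature genes 2 were higher (18.2%), the targeted KRT17 itself and TNS4 at 0.90. In the same list 4 were lower (36.4%), among them FGFBP1 (-0.83), which held in every fit. Outside chromosomes 14, 16 and 17, described below, 0 of 8 basal-like genes tested were higher and 4 were lower. Of 7 classical ones 2 were higher (28.6%), MUC5AC among them, and 1 lower (14.3%). SOX4 was lower and SOX13 higher (-0.64 and 0.58). JAG1, a Notch ligand, was 2.04-fold higher in the knockout (adjusted p = 0.000174), as were the Wnt ligand WNT7A (3.55-fold) and the Wnt antagonists DKK1 (1.84-fold) and DKK3 (3.26-fold).

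Among metabolic genes the detoxification list and the amino acid list moved in opposite directions. Of 40 NRF2 target and detoxification genes 10 were higher in the wild type (25%) and 4 lower (10%), median 0.30, and 4 of the 10 held in every fit. FTH1, the ferritin heavy chain that stores iron, had 2110, 2100 and 2230 CPM in the knockout and 3520, 2970 and 2780 CPM in the wild type, highest in replicate 1 (1.44-fold, SE 0.0848 on the log2 scale, adjusted p = 0.00735). ALDH3B1, an aldehyde dehydrogenase, was 2.07-fold higher (adjusted p = 0.00287). Among the UDP-glucuronosyltransferases, which conjugate drugs and bilirubin, 4 of 8 were higher (50%), but the UGT1A genes share their last exons and their reads may be split between rows. UGT1A1 was the one whose call held in every fit (0.65, adjusted p = 0.0065). Of 32 targets of ATF4, the factor induced by amino acid shortage, 9 were lower in the wild type (28.1%) and 1 higher (GDF15), median -0.21, and 4 of the 9 held in every fit. SHMT2, the mitochondrial serine hydroxymethyltransferase, had 85.3, 90.1 and 83.5 CPM in the knockout and 46.2, 28.4 and 31.8 CPM in the wild type (2.41-fold higher in the knockout, adjusted p = 0.00375), with replicate 1 nearest the knockout. PHGDH, which starts serine synthesis, was 1.42-fold higher in the knockout and the transsulfuration enzyme CBS 1.62-fold.

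Genes that bear on gemcitabine and on pyrimidine supply were mostly below the threshold. Of 38 pyrimidine genes 6 were lower in the wild type (15.8%), and 2 of the 6 (SHMT2 and DCTD, dCMP deaminase, -0.46) held in every fit. The enzymes of de novo synthesis did not pass: DHODH had 8.73, 8.99 and 7.12 CPM in the knockout and 6.3, 5.53 and 6.09 CPM in the wild type (log2 fold change -0.47, SE 0.181, adjusted p = 0.143), CAD stood at -0.77 (SE 0.463, adjusted p = 0.316; -0.09 without knockout replicate 1, its highest library) and UMPS at -0.04 (SE 0.0764, adjusted p = 0.771). The ranges of DHODH did not overlap, at 51 to 125 counts per library. Of 16 gemcitabine transporters and ABC efflux genes 2 were higher (12.5%), both on chromosome 17, among them ABCC3, an efflux pump for conjugates (43.2, 42.8 and 53.2 CPM in the knockout, 89.9, 86.8 and 90.2 CPM in the wild type, adjusted p = 0.000715). Of 39 mitochondrial dynamics and import genes 2 were higher and 2 lower (5.13% each), and of 67 mitochondrial ribosomal protein genes 1 was higher (1.49%). Without wild-type replicate 1, where 10.6% of all genes tested were lower, 7 of 39 and 12 of 69 genes of these lists were lower. The 45 NDUF genes of complex I had a median of -0.03. Without replicate 1 5 of them were lower, near the share over all genes.

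Wild-type replicate 1 was therefore placed gene by gene. For the genes called without it, its position was put on a scale from 0, the knockout mean, to 1, the mean of wild-type replicates 2 and 3, in log2 CPM. Of 2493 such genes 2434 were also tested with all 6 libraries. Their median position was 0.55 (quartiles 0.27 and 0.85): 571 (23.5%) lay under 0.25 and 785 (32.3%) at 0.75 or above. The libraries that chose these genes also set both ends of the scale. This favours positions under 1 for whichever library is left out, by an amount that was not tested. The 504 genes of at least 2-fold had a median of 0.51 and the other 1930 one of 0.56. In the 487 genes called in all 7 fits the median was 0.90, but replicate 1 took part in choosing them, which favours positions near 1. PPEF2, a protein phosphatase, had 3.12 CPM in replicate 1, within the 2.66 to 4.1 CPM of the knockout, and 18.6 and 19.5 CPM in replicates 2 and 3 (adjusted p = 0.000951 without replicate 1 and 0.0939 with it). PLLP, a membrane protein of myelin and epithelium, had 16.7 CPM there against 16.3 to 26.2 CPM in the knockout and 63.9 and 68.7 CPM in replicates 2 and 3. PLLP was chosen after its values were seen. In the genes of the plot of largest changes, in whose choice replicate 1 took part, positions ran from 0.61 (HYI) to 1.29 (CAMK2B). Ribosomal protein genes were on the side of those that differed: 44 of 82 were lower in the wild type without replicate 1 and 11 of 82 with it, at a median position of 0.28 over the 45 called. Histone genes did likewise, with 20 of 55 higher without replicate 1 and 6 of 49 with it (median position 0.23). For the mucins the median was 0.84, for the YAP and TEAD targets 0.95 and for the mesenchymal genes 0.92.

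**Figure D4:**
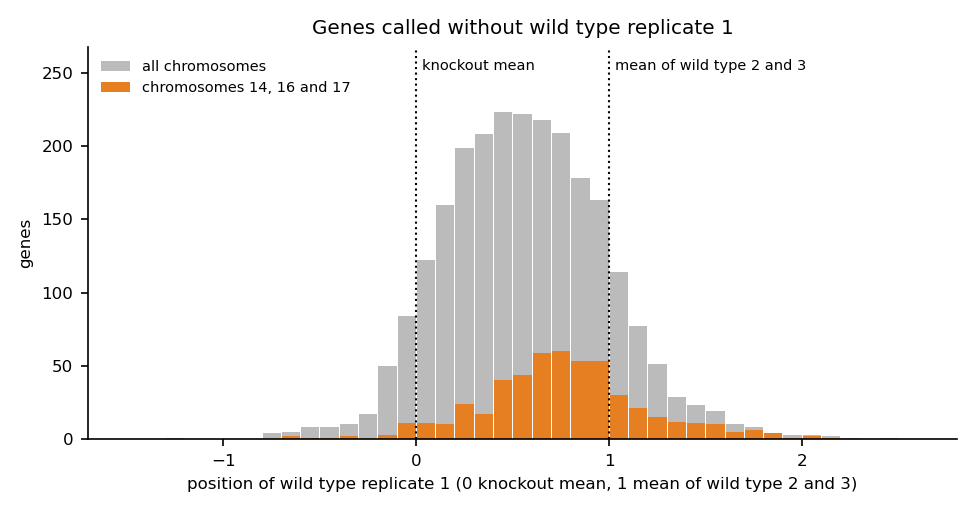
Number of genes by the position of wild-type replicate 1 (0 at the mean of the knockout libraries, 1 at the mean of wild-type replicates 2 and 3, in log2 CPM), for the genes called without that replicate. Grey bars are all such genes and orange bars those on chromosomes 14, 16 and 17, whose median is 0.76 against 0.49 elsewhere. The libraries that chose the genes also set the scale, which favours positions under 1.

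The calls were uneven along the genome. Chromosomes 14, 16 and 17 held 14.1% of the genes tested and 30.5% of the genes called: 407 of 1962 (20.7%), against 928 of 11929 elsewhere (7.78%). On chromosome 14, 86 genes were higher and 12 lower of 451, on chromosome 16, 3 higher and 94 lower of 649, and on chromosome 17, 114 higher and 98 lower of 862. On each other chromosome 5.46% to 11.0% of genes were called, with median log2 fold changes of -0.05 to 0.05. Within these 3 chromosomes neighbouring genes moved together in long stretches, seen in bins of 10 Mb over genes of at least 10 CPM: 13 of 204 bins had a median of at least 0.2 in size, all 13 on these chromosomes, while bins elsewhere ran from -0.19 to 0.11. The chromosomes, the bins and the stretches were chosen after the values were seen, so these are descriptions without a test.

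On chromosome 14 from 20 to 80 Mb, 82 genes were called higher and 3 lower of 329, and the median gene of at least 10 CPM was 0.27 higher (1.21-fold). Its median was 0.30, 0.25 and 0.25 above the knockout mean in wild-type replicates 1, 2 and 3. From 90 to 110 Mb it was -0.05. On chromosome 16 from 50 to 70 Mb, 51 of 134 genes were called lower, and the median was -0.45 (1.36-fold higher in the knockout), at -0.42, -0.43 and -0.46 in the 3 wild-type libraries, with 94.4% of genes below 0. On chromosome 17 the sign changed within the chromosome: up to 20 Mb, 4 genes were called higher and 88 lower of 238 (median -0.47), and from 20 Mb on 110 higher and 10 lower of 624 (median 0.22). The 3 wild-type libraries, replicate 1 included, showed each stretch, and the 3 knockout libraries lay within -0.03 to 0.05 of their mean in the bins of these chromosomes. DNA copy number was not measured, and its part in these differences was not tested.

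**Figure D5:**
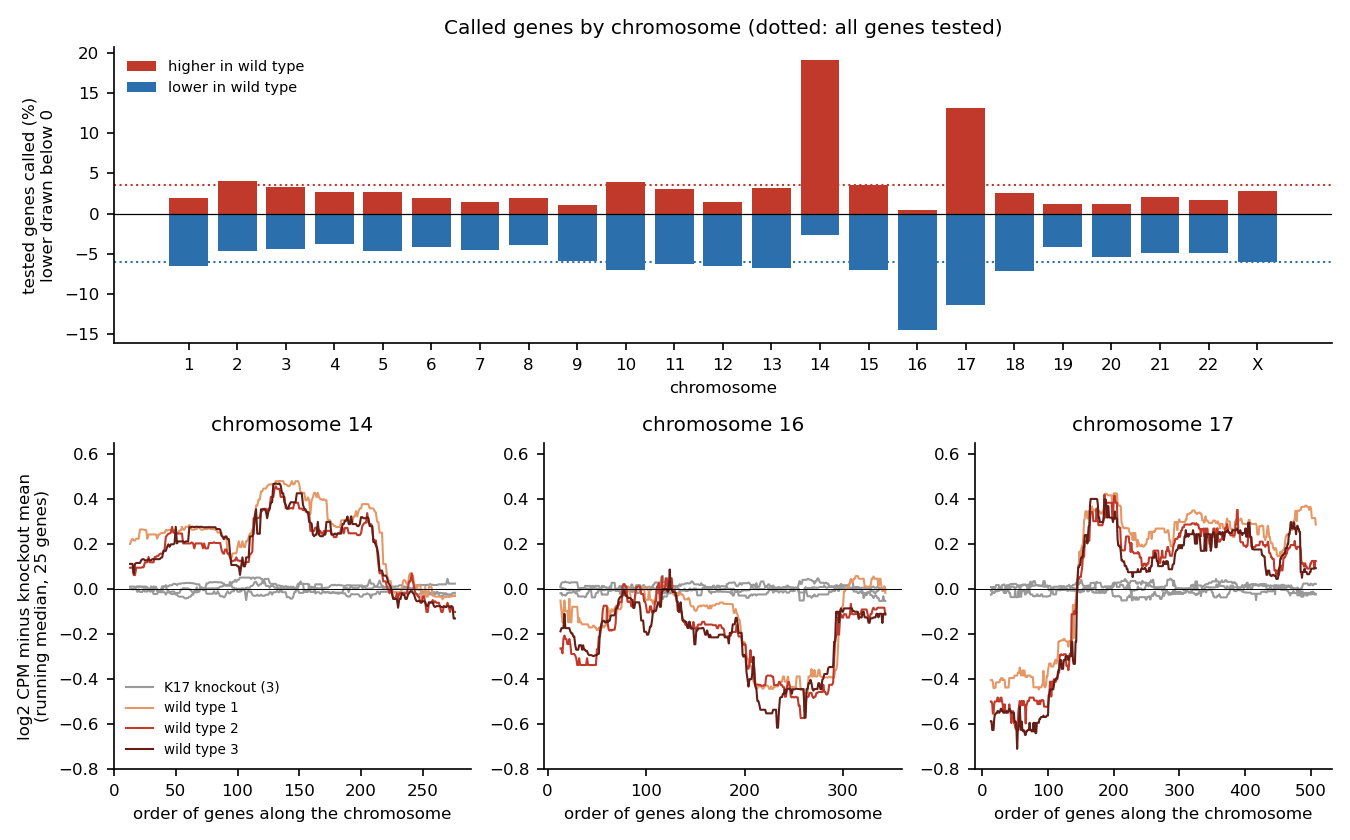
Upper panel: percent of tested genes called higher (red) or lower (blue, drawn below 0) in the wild type on each chromosome, dotted lines the shares over all genes tested. Lower panels: running median over 25 genes of log2 CPM minus the knockout mean for genes of at least 10 CPM in chromosomal order, one line per library. Knockout lines stay near 0, and all 3 wild-type lines rise on chromosome 14, fall past the middle of chromosome 16 and switch from below to above 0 on chromosome 17.

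These stretches hold several genes named above. KRT17 and KRT19 lie in the raised part of chromosome 17, where 30 of the 34 other genes tested within 1 Mb of KRT17 had log2 fold changes above 0 (median 0.18). ACLY, DNAJC7 and KAT2A were called higher there and KRT19 and JUP lower, and KRT17 at 2.98 stood far above them all. Each of these 5 calls was lost in at least 3 of the fits without a library, among them in each case that without knockout replicate 2 (adjusted p = 0.142 for ACLY, 0.0984 for DNAJC7, 0.154 for KAT2A, 0.105 for KRT19 and 0.0751 for JUP). HEATR4 and NFKBIA lie in the raised stretch of chromosome 14, CYLD, MMP2 and CDH3 in the lowered stretch of chromosome 16, and C1QBP and MYO1C in that of chromosome 17. TNFAIP2 lies on chromosome 14 beyond the raised stretch. PECAM1, the only endothelial marker called and part of the endothelial sum given above, lies in the raised part of chromosome 17. It had 8.98, 8.24 and 11.5 CPM in the wild type and 3.71, 3.74 and 3.41 CPM in the knockout (adjusted p = 0.00468). KRT19 and JUP went against the direction of their stretch. Outside the 3 chromosomes, where 2.39% of genes were called higher and 5.39% lower, the calls were 15 lower and 3 higher for the actomyosin genes, 8 and 1 for the YAP and TEAD targets, 6 and 1 for the mesenchymal genes, 9 and 2 for the PDGF, VEGF, FGF and neurotrophin genes and 2 and 9 for the NRF2 list. The 6 mucins lie on other chromosomes. A separate fit without the 3 chromosomes called 738 of 11951 genes, 232 higher and 506 lower.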

How the data were processed

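RNA of the 3 wild-type and 3 K17 knockout L3.6 samples was isolated in TRIzol and sequenced from Illumina TruSeq libraries, per the labels. The authors deposited raw counts per Ensembl gene for each library. Per the submitters' processing notes, bcl2fastq 1.8.4, STAR 2.7.3a, kallisto 0.46.2 and the build GRCh38 were used. Their roles and the strand setting being not given in the sources used here, overlapping and antisense genes are uncertain. Of 34505 gene identifiers, 34474 were found in GENCODE 29, which gave names and positions.

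The counts were tested with edgeR 4.0.16 (R 4.3.3): filterByExpr, TMM factors, a robust quasi-likelihood fit of both groups without covariates, and Benjamini-Hochberg adjustment over all 13891 genes tested (threshold 0.05). CPM used TMM-scaled library sizes, and log2 CPM a prior count of 2. Standard errors are the fold change over the square root of F. On simulated counts with 200 changed genes, drawn for this comparison from the libraries' own means and sizes over 13583 genes, the test found 43 of 98 genes changed 2-fold and 81 of 97 changed 4-fold, and 11 of 135 calls were wrong.

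Genes are named by a rule. It takes the 15 highest and 15 lowest called protein-coding genes of at least 5 CPM whose groups do not overlap. It adds the 10 most abundant called genes and up to 6 called members of each gene list or family (2 where none was called). It also adds the 10 genes in which wild-type replicate 1 lay nearest the knockout. Genes outside the rule are given as such or by a count of 5 or fewer. The members, 50 lists and 25 families were chosen with earlier results of these data known. The alternatives tried were other scaling factors (RLE, upper quartile), no filter, a CPM filter, DESeq2 1.42.0, limma-voom 3.58.1, a replicate block, no AC010970.1 row and each library left out. The fit without chromosomes 14, 16 and 17, the comparison of replicates without AC010970.1 and the chromosome medians over genes of at least 10 CPM were chosen after seeing the data. No library in a group was a copy of another. A few named genes are left out of this text and not reported here.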

Additional observations from a re-analysis of the deposited data

How the results depend on the processing

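The call and direction of KRT17 stayed the same in every alternative that tested it; the fit without chromosomes 14, 16 and 17 leaves it out. The counts of calls moved most with single libraries: over fits leaving out 1 library, the genes called numbered 574 to 2493, those higher in the wild type 193 to 956, those lower 370 to 1537 and those of at least 2-fold 148 to 563, the highest in each case without wild-type replicate 1. With a replicate block the counts were 665, 224, 441 and 162; same-numbered libraries did not deviate together (r = -0.121, -0.0392 and 0.0223), so the numbers give no pairing. Without chromosomes 14, 16 and 17 they were 738, 232, 506 and 162, and the chromosome 16 median over genes of at least 10 CPM was -0.15. RLE factors gave 1256 calls, upper-quartile factors 1345, no filter 1420, DESeq2 1685 and limma-voom 1194. No called gene named here changed sign, but limma-voom ended the calls of MUC1, MUC4, PTGS2 and KAT2A, no filter those of ACLY, DNAJC7, FLNA, KAT2A and MUC1, RLE factors those of BIRC2 and KAT2A, and upper-quartile factors that of BIRC2. The fit without AC010970.1 ended that of KAT2A, the fit without the 3 chromosomes those of BIRC2, MUC1 and PTGS2, and the replicate block those of ACLY, BIRC2, DNAJC7, JUP, KAT2A, KRT19, MUC1, PTGS2, SPP1 and UGT1A4. Among genes below the threshold, fits leaving out 1 library gave -0.08 to 0.19 for KRT10 (negative without wild-type replicate 1), -0.51 to 0.17 for KRT18 (positive without knockout replicate 1), -0.12 to 0.13 for KRT83 (negative without knockout replicate 2 and wild-type replicate 3, at -0.07) and -0.13 to 0.03 for UMPS (positive without wild-type replicate 3). KRT83 stood at -0.03 with no filter and UMPS at 0.01 with upper-quartile factors. The cause was not tested. With 9485257 to 15476629 counts and 3 libraries a group, many changes are missed: on simulated counts of this comparison the test found 43 of 98 genes changed 2-fold and 81 of 97 changed 4-fold.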
